A study of Homo sapiens with 12 samples.

Results

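Tumour cells that rely on glycolysis make acid, and they hold their internal pH with a set of proteins at the cell surface and in the cytosol. Here the mRNAs of 9 such genes were followed: the carbonic anhydrases CA9, CA12 and CA2, the bicarbonate transporters SLC4A2, SLC4A4 and SLC4A7, the lactate transporters SLC16A1 and SLC16A3, and BSG, the chaperone of both lactate transporters. They were taken by gene symbol, as named genes of pH regulation, with earlier results of these data known. They are 9 of the 34694 symbols listed in either of the deposited tables. All 9 had a value in the KYSE410 table (30106 genes) and 8 in the KYSE150 table (30703 genes), which did not list SLC4A4.

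Carbonic anhydrases interconvert carbon dioxide and bicarbonate with a proton. CA9 and CA12 sit in the plasma membrane with the active site outside the cell, whereas CA2 is cytosolic. SLC4 proteins carry bicarbonate, and SLC16 proteins of the MCT group carry lactate together with a proton. CA9 is a widely used marker of hypoxia and a textbook target of HIF-1, the transcription factor that is stabilised at low oxygen.

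KYSE410 and KYSE150 are established lines of human esophageal squamous carcinoma, labelled wild type. The groups were KYSE410 in 0.5% oxygen (hypoxia, labelled 48 h), KYSE410 in 21% oxygen (normoxia, labelled time 0), KYSE150 in 0.5% oxygen (hypoxia, labelled 48 h) and KYSE150 in 21% oxygen (normoxia, labelled time 0), with 3 libraries each. The series' design text gives 48 h for both oxygen levels, so the time in normoxia is not settled. Values are taken as FPKM, fragments per kilobase of transcript after scaling for depth, a unit inferred from the values. If that unit holds, levels can be set side by side between genes.

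Libraries of a group correlated at r = 0.979 to 0.996 across genes. KYSE150 normoxia replicate 2 stood apart: its log2 difference from its group mates spread with an SD of 0.339 and 0.369, whereas the other pairs of a group reached 0.153 to 0.197. The labels carry sample-sheet numbers, which run from 56 to 58 for KYSE410 hypoxia and from 38 to 40 for KYSE410 normoxia, so oxygen and library set, as far as these numbers show sets, cannot be told apart in that line. In KYSE150 the 6 numbers run on from 50 to 55. Of 8 squamous markers, 7 averaged 1 FPKM or more in KYSE410 and only KRT17 did in KYSE150, where KRT5 and TP63 were near 0. KYSE150 had mesenchymal markers as well as the epithelial markers given below. The mesenchymal markers summed to between 557 and 572 FPKM in hypoxia and between 266 and 322 FPKM in normoxia. That sum was nearly all VIM, at 549 FPKM in hypoxia and 270.0 FPKM in normoxia, while COL1A1, PDGFRB and CDH2 averaged lower in hypoxia. Squamous markers also moved with oxygen, summing to between 1172 and 1189.7 FPKM in KYSE410 hypoxia, against 322 to 329.9 FPKM in KYSE410 normoxia, and to between 406 and 444 FPKM in KYSE150 hypoxia, against 192 to 251 FPKM in KYSE150 normoxia. DSG3 went the other way in KYSE410, at 14.2 FPKM in hypoxia and 25.3 FPKM in normoxia. The squamous sum of KYSE150 was nearly all KRT17, at 427 FPKM in hypoxia and 213 FPKM in normoxia. The other squamous markers were near 0 in that line. The 5 epithelial markers summed to between 1051 and 1104 FPKM in KYSE410 hypoxia, against 1915 to 2038 FPKM in KYSE410 normoxia. KRT8, KRT18, CDH1 and EPCAM were all lower in hypoxia there. In KYSE150 the epithelial markers summed to between 678 and 702 FPKM in hypoxia and between 552 and 716 FPKM in normoxia, with overlap. Nearly all of that sum was KRT8 and KRT18, while CDH1 and KRT19 were near 0. CD68 was the 1 of 4 immune markers, and no endothelial marker, to reach 1 FPKM in either line. The part of these markers in the results was not tested, and in bulk RNA fewer cells of a type and less RNA per cell cannot be told apart. Nothing in the labels says that the replicates were separate cultures, and the p-values therefore refer to library spread alone, possibly technical.

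**Figure D1:**
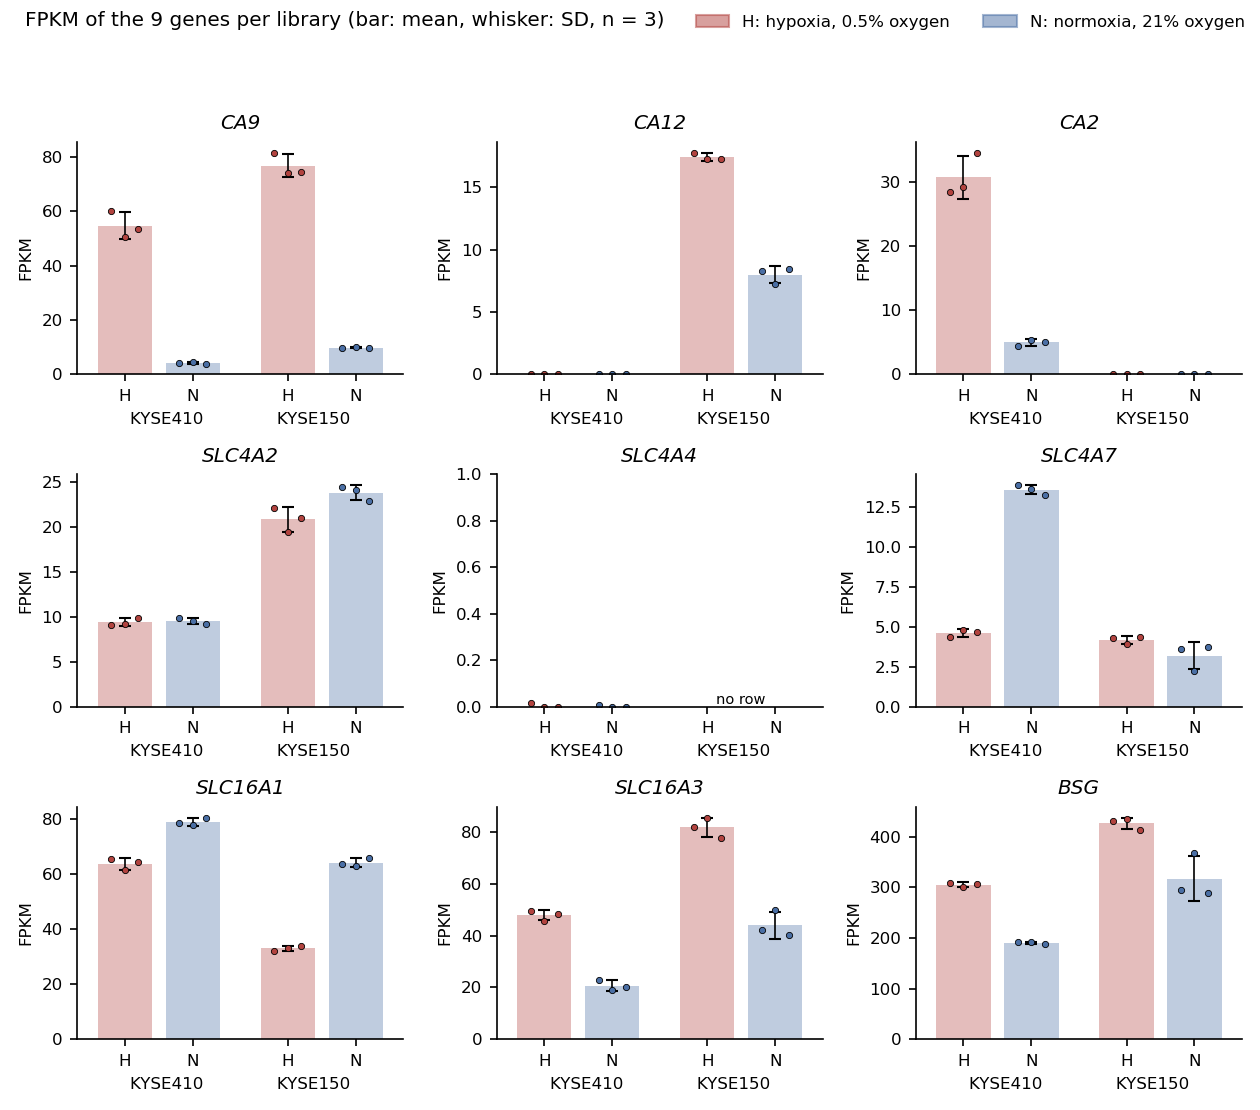
FPKM of the 9 genes in every library (points), with the mean (bar) and SD (whisker, n = 3) of hypoxia (H) and normoxia (N) in KYSE410 and KYSE150; where a mean is under 0.1 FPKM the points stand alone. CA9 and SLC16A3 were higher in hypoxia in both lines, CA2 had appreciable levels in KYSE410 and CA12 in KYSE150, and SLC4A7 differed between hypoxia and normoxia chiefly in KYSE410.

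CA9 and the lactate exporter gene SLC16A3 rose in hypoxia in both lines, as did BSG, while SLC16A1 fell in both, a small fall in KYSE410 that was lost under median of ratios scaling and turned positive without a length trend. A second carbonic anhydrase also rose in each line: CA2 in KYSE410 and CA12 in KYSE150. SLC4A7, a sodium-bicarbonate cotransporter, fell in KYSE410 and did not pass the test in KYSE150. Differences were tested with limma on log2(FPKM + 1), a scale that understates the change of low values, among genes averaging 1 FPKM or more, and a gene was called when its adjusted p (Benjamini-Hochberg over all genes tested) was under 0.05. In KYSE410, 7 of the 9 genes were tested, of which 4 rose, 2 fell and 1 did not pass. These counts stand beside 31.2% of all 12054 tested genes called higher, 51.9% called lower and 83.1% called in either direction. In KYSE150, 7 genes were tested, of which 4 rose, 1 fell and 2 did not pass, beside 23.5% of 12692 tested genes called higher, 38.8% lower and 62.3% in either direction. Hypoxia and normoxia libraries did not overlap for 6 of 7 genes in KYSE410 and 7 of 7 in KYSE150, against 84.6% and 69.6% of all tested genes. With so many genes called, a call by itself does not set these genes apart from the rest. The sizes of the changes, and the ranks of those called, are given below. The median log2 change was 0.68 for the 7 genes in KYSE410, where that of all genes was -0.21, and 0.43 for the 7 in KYSE150, where that of all genes was -0.13. The genes were chosen with earlier results of these data known, so these medians are a description and no test. In KYSE410 the median of the 7 was 0.29 under quantile normalization and 0.89 under median of ratios scaling, beside -0.01 and -0.03 for all genes. All 10 genes of a check list of classical hypoxia-responsive genes rose in each line, of which 1, ANKRD37, reached the filter through its hypoxia libraries alone.

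**Figure D2:**
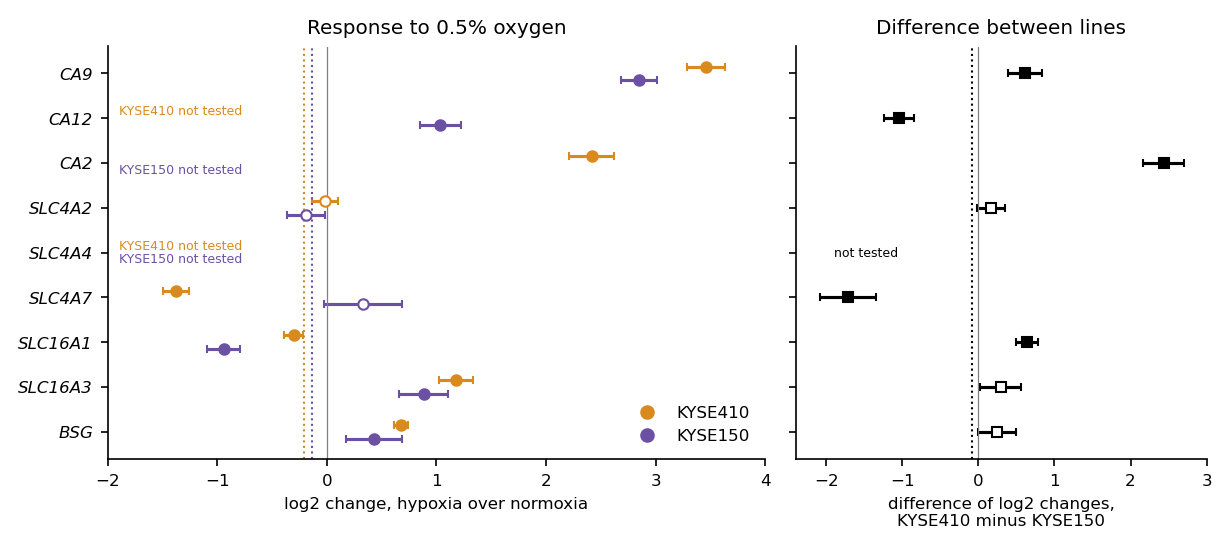
Log2 change in hypoxia over normoxia (left, by line) and difference of the changes, KYSE410 minus KYSE150 (right), with 95% confidence intervals from limma; filled symbols passed at an adjusted p under 0.05 and open ones did not, and dotted lines mark the median of all genes tested. The largest rises were those of CA9 (3.46 in KYSE410 and 2.85 in KYSE150), and SLC4A7 had the largest negative difference between lines (-1.71). SLC4A2 turns positive in KYSE410 under median of ratios scaling, quantile normalization and removal of a length trend, SLC16A1 in KYSE410 under the last of these, and the differences of SLC4A2 and BSG turn negative under a common sum, that of BSG also under quantile normalization.

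CA9 lies on chromosome 9 from 35673856 to 35681159 on the plus strand (hg38, GENCODE 29) and overlaps ARHGEF39 on the opposite strand. In KYSE410, CA9 had 60.2, 50.5 and 53.4 FPKM in hypoxia, against 3.97, 4.43 and 3.74 FPKM in normoxia. Every hypoxia library stood above every normoxia library, and the means were 54.7 ± 4.99 FPKM in hypoxia and 4.05 ± 0.354 FPKM in normoxia (SD, n = 3 each), a ratio of 13.5. Its log2 change was 3.46 ± 0.08 (SE; limma, adjusted p = 5.5119e-09), the rise of rank 12 among 12054 genes. In KYSE150, CA9 had 81.7, 74.1 and 74.7 FPKM in hypoxia, against 9.72, 10.1 and 9.56 FPKM in normoxia. The groups again did not overlap, with means of 76.8 ± 4.24 FPKM in hypoxia and 9.80 ± 0.292 FPKM in normoxia (SD, n = 3 each), a ratio of 7.84. The log2 change was 2.85 ± 0.07 (SE; limma, adjusted p = 2.49947e-07), rank 28 among the rises of 12692 genes. By level, CA9 was the listed gene of rank 1099 in KYSE410 hypoxia and 8803 in KYSE410 normoxia, and of rank 651 in KYSE150 hypoxia and 5707 in KYSE150 normoxia.

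The sequence before the CA9 transcript start is shown because HIF binds DNA at hypoxia response elements, whose core can read ACGTG. That core, with its variant GCGTG, was searched on both strands in the 250 bases before each RefSeq transcript start, GRCh38.p14. On the other strand they read CACGT or, for the variant, CACGC, and a stretch CACGTG holds the core on both strands and counts once for each. Of all 35116 such windows, 18.5% held ACGTG, 32.2% held GCGTG and 43.2% held either. A match is a description of the letters and not evidence of binding. CA9 had 1 match, to ACGTG on the opposite strand, 18 to 14 bases before the RefSeq start and inside the first exon that GENCODE 29 annotates. Below, capitals mark the match. The first line is the plus strand at chr9:35673678-35673855, before the first annotated exon and without a match, and the second the plus strand at chr9:35673898-35673927.
CA9 upstream: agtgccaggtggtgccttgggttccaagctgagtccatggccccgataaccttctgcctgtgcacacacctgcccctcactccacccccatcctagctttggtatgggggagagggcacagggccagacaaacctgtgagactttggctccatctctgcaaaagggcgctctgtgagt
CA9 at the start: tcgtttccaatgCACGTacagcccgtacac

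CA12, the other membrane enzyme, lies on chromosome 15 from 63321378 to 63382161 on the minus strand (hg38) and had appreciable values in KYSE150, not in KYSE410. In KYSE150, CA12 had 17.8, 17.3 and 17.3 FPKM in hypoxia, against 8.32, 7.25 and 8.43 FPKM in normoxia. All hypoxia libraries exceeded all normoxia libraries, with means of 17.4 ± 0.310 FPKM in hypoxia and 7.998 ± 0.650 FPKM in normoxia (SD, n = 3 each). The log2 change was 1.04 ± 0.08 (SE; limma, adjusted p = 2.53711e-05), rank 529 among the rises. In KYSE410, CA12 was listed at 0, 0 and 0.0064 FPKM in hypoxia and at 0, 0.0053 and 0.0070 FPKM in normoxia, and was not tested. The RefSeq window of CA12 held 1 match, to GCGTG on the opposite strand, within the first exon that GENCODE 29 annotates. It is shown in capitals in the minus-strand sequence at chr15:63382063-63382092.
CA12: gcggatctcaccCACGCctgccagcagctc

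CA2, the cytosolic enzyme, showed the opposite distribution over the lines. It lies on chromosome 8 from 85463852 to 85481493 (plus strand, hg38), where CA3-AS1 overlaps it on the opposite strand. In KYSE410, CA2 had 28.4, 29.2 and 34.7 FPKM in hypoxia, against 4.40, 5.39 and 5.04 FPKM in normoxia. The groups did not overlap, and the means of 30.8 ± 3.39 FPKM in hypoxia and 4.94 ± 0.503 FPKM in normoxia (SD, n = 3 each) had a ratio of 6.22. Its log2 change was 2.42 ± 0.09 (SE; limma, adjusted p = 4.88473e-08), rank 53 among the rises. KYSE150 had no appreciable CA2: the libraries had 0.051, 0.023 and 0 FPKM in hypoxia and 0.026, 0.027 and 0.056 FPKM in normoxia, and the gene was not tested there.

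Summed over all carbonic anhydrases listed, mRNA came to 91.5, 82.3 and 91.2 FPKM in KYSE410 hypoxia, against 11.7, 13.6 and 11.1 FPKM in KYSE410 normoxia (11 genes). In KYSE150 the sum was 115, 106 and 105 FPKM in hypoxia, against 27.1, 26.2 and 26.3 FPKM in normoxia (13 genes). The sums did not overlap between oxygen levels in either line. CA9 made up 61.9 ± 3.66% of the sum in KYSE410 hypoxia and 33.4 ± 0.686% in KYSE410 normoxia (SD, n = 3 each). CA2 accounted for 34.9 ± 3.50% in KYSE410 hypoxia and 40.8 ± 4.11% in KYSE410 normoxia, with overlapping libraries. The CA9 share in KYSE150 was 70.7 ± 0.453% in hypoxia and 37.0 ± 1.43% in normoxia, while that of CA12 was 16.1 ± 0.515% in hypoxia and 30.1 ± 2.28% in normoxia (SD, n = 3 each). Although both membrane enzymes rose in KYSE150, their ratio stood higher in hypoxia: the log2 ratio of CA9 over CA12 within a library was 2.08 ± 0.05 in hypoxia and 0.27 ± 0.14 in normoxia (SD, n = 3 each), a difference of 1.81. The groups did not overlap, and the two-sided exact permutation test gave p = 0.1, the smallest that 3 against 3 libraries allow. In KYSE410, where CA12 was near 0, the same ratio differed by 3.46 and follows CA9 alone.

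**Figure D3:**
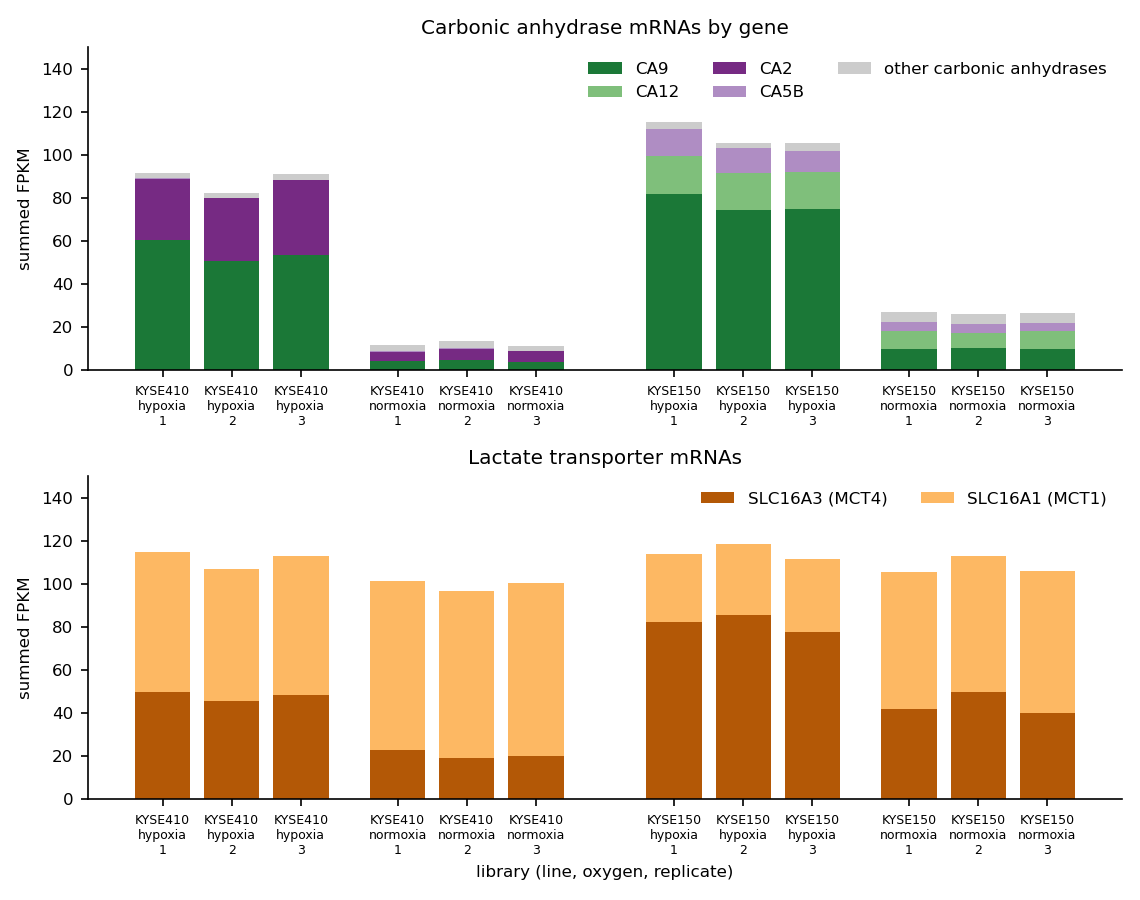
Summed FPKM in each library (n = 3 per line and oxygen level), stacked by gene: carbonic anhydrases above, SLC16A3 and SLC16A1 below. The carbonic anhydrase sum was 88.3 against 12.2 FPKM (KYSE410, hypoxia against normoxia) and 109 against 26.5 FPKM (KYSE150, hypoxia against normoxia), whereas the lactate transporter sum was 112 against 99.5 and 115 against 108 FPKM, with a larger SLC16A3 part in hypoxia.

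SLC16A3 encodes MCT4, a lactate transporter known for export from glycolytic cells, and SLC16A1 encodes MCT1, which has a higher affinity for lactate and carries it in or out. SLC16A3 lies on chromosome 17 from 82228397 to 82261129 on the plus strand (hg38), where CSNK1D overlaps it on the opposite strand. MIR6787, AC132872.3 and AC132872.4 overlap it on its own strand, so some reads could be shared. In KYSE410, SLC16A3 had 49.7, 45.7 and 48.5 FPKM in hypoxia, against 22.9, 19.0 and 20.2 FPKM in normoxia. The groups did not overlap, and the log2 change was 1.18 ± 0.07 (SE; limma, adjusted p = 5.66381e-07), rank 502 among the rises. In KYSE150 it had 82.2, 85.5 and 77.9 FPKM in hypoxia, against 42.1, 49.98 and 40.1 FPKM in normoxia. Here too all hypoxia libraries were higher, with a log2 change of 0.88 ± 0.10 (SE; limma, adjusted p = 1.30732e-04) and rank 737 among the rises.

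SLC16A1 lies on chromosome 1 from 112911847 to 112957013 on the minus strand (hg38). SLC16A1-AS1 overlaps it on the opposite strand and SLC16A1P1 is an annotated pseudogene, so some reads could be shared. In KYSE410, SLC16A1 had 65.3, 61.2 and 64.4 FPKM in hypoxia, against 78.3, 77.5 and 80.4 FPKM in normoxia. The hypoxia libraries were all lower, with a log2 change of -0.30 ± 0.04 (SE; limma, adjusted p = 5.76626e-05), rank 5443 among the falls of 12054 genes. That change is -0.09 relative to the median of all genes. This call was lost under median of ratios scaling (-0.09, limma adjusted p = 0.0570) and after removal of a trend with transcript length (0.02, limma adjusted p = 0.705). In KYSE150 it had 32.0, 33.1 and 33.8 FPKM in hypoxia, against 63.4, 63.0 and 65.8 FPKM in normoxia. This fall was larger, with a log2 change of -0.94 ± 0.06 (SE; limma, adjusted p = 1.49995e-05), -0.81 relative to the median and rank 1156 among the falls.

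The share of SLC16A3 among the lactate transporter mRNAs was higher in every hypoxia library than in every normoxia library of its line. SLC16A3 made up 43.2, 42.7 and 43.0% of the FPKM of both genes in KYSE410 hypoxia, against 22.6, 19.7 and 20.1% in KYSE410 normoxia. In KYSE150 the share was 72.0, 72.1 and 69.8% in hypoxia, against 39.9, 44.3 and 37.9% in normoxia. SLC16A3 was thus the more abundant of the pair in KYSE150 hypoxia and the less abundant in the other groups. The log2 ratio of SLC16A3 over SLC16A1 was -0.40 ± 0.01 in hypoxia and -1.88 ± 0.13 in normoxia for KYSE410, a difference of 1.48, and 1.29 ± 0.09 in hypoxia and -0.54 ± 0.19 in normoxia for KYSE150, a difference of 1.82 (SD, n = 3 each). Groups did not overlap in either line, and each two-sided exact permutation test gave p = 0.1, the smallest possible here.

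BSG (basigin, CD147) brings both transporters to the membrane. It lies on chromosome 19 from 571277 to 583493 on the plus strand (hg38) and was the most abundant of the 9 genes in every group. In KYSE410, BSG had 309.7, 301 and 307 FPKM in hypoxia, against 192, 192 and 189 FPKM in normoxia. The groups did not overlap, with a log2 change of 0.68 ± 0.03 (SE; limma, adjusted p = 8.52849e-08), rank 1583 among the rises of 12054 genes. In KYSE150 it had 432, 435 and 414 FPKM in hypoxia, against 295, 369 and 289 FPKM in normoxia. The highest normoxia value was that of replicate 2, the library that stood apart. The log2 change was 0.43 ± 0.11 (SE; limma, adjusted p = 0.00949), rank 2150 among the rises of 12692 genes. BSG mRNA stood at 2.74 ± 0.065 times the sum of both transporters in KYSE410 hypoxia and 1.92 ± 0.063 times in KYSE410 normoxia, and at 3.72 ± 0.061 times in KYSE150 hypoxia and 2.93 ± 0.294 times in KYSE150 normoxia (SD, n = 3 each).

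The start regions of SLC16A3 and BSG that hold ACGTG are shown next, with matches in capitals, since these genes rose in both lines. Of 5 annotated starts of SLC16A3, the second had 2 matches to ACGTG, at chr17:82228792-82229031 on the plus strand. Of 2 starts of BSG, the second had CACGTG and 4 matches to GCGTG, at chr19:572346-572564 on the plus strand. Both stretches lie within the gene, before an alternative start, and hold no annotated exon of it.
SLC16A3: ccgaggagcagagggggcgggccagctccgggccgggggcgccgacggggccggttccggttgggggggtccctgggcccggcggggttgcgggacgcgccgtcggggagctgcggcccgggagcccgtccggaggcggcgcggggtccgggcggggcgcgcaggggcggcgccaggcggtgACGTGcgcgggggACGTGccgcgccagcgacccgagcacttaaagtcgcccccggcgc
BSG: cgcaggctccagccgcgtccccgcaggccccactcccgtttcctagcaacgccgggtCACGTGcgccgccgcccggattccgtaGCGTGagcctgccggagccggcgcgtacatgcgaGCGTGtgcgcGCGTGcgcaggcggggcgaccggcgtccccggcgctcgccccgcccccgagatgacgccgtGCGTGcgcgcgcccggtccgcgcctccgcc

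SLC4A7 (NBCn1) brings sodium and bicarbonate into the cell and so counters acid. It lies on chromosome 3 from 27372721 to 27484420 on the minus strand (hg38). In KYSE410, SLC4A7 had 4.33, 4.80 and 4.66 FPKM in hypoxia, against 13.8, 13.6 and 13.3 FPKM in normoxia. All hypoxia libraries lay far below all normoxia libraries, with means of 4.60 ± 0.243 FPKM in hypoxia and 13.6 ± 0.289 FPKM in normoxia (SD, n = 3 each), a ratio of 0.339. The log2 change was -1.38 ± 0.05 (SE; limma, adjusted p = 5.34612e-08), rank 821 among the falls of this line. In KYSE150, SLC4A7 had 4.31, 3.89 and 4.32 FPKM in hypoxia, against 3.60, 2.199 and 3.70 FPKM in normoxia. The hypoxia libraries were slightly higher without overlap, and the log2 change of 0.33 ± 0.15 (SE; limma, adjusted p = 0.0910; 95% interval -0.02 to 0.69) did not pass. The lowest normoxia value was again that of replicate 2, without which the change was 0.15. It passed under median of ratios scaling (0.47, limma adjusted p = 0.0215), quantile normalization (0.46, limma adjusted p = 0.0191) and removal of a length trend (0.39, limma adjusted p = 0.00283).

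SLC4A2 (AE2) exchanges bicarbonate for chloride and so loads acid into the cell. It lies on chromosome 7 from 151057210 to 151076527 on the plus strand (hg38), where CDK5 overlaps it on the opposite strand. In KYSE410, SLC4A2 had 9.12, 9.20 and 9.89 FPKM in hypoxia, against 9.89, 9.58 and 9.16 FPKM in normoxia. The groups overlapped, and the log2 change of -0.02 ± 0.05 (SE; limma, adjusted p = 0.736; 95% interval -0.14 to 0.10) did not pass. Its sign depended on the scaling: 0.17 under median of ratios, 0.29 under quantile normalization and 0.33 without the length trend, and -0.25 under a common sum, each past the threshold (limma, adjusted p = 2.651e-04 to 0.01005). In KYSE150 it had 22.2, 19.5 and 21.0 FPKM in hypoxia, against 24.5, 24.2 and 22.9 FPKM in normoxia. These groups did not overlap, yet the log2 change of -0.19 ± 0.08 (SE; limma, adjusted p = 0.0614; 95% interval -0.36 to -0.01) did not pass. It passed without normoxia replicate 2 (-0.18, limma adjusted p = 0.0365).

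Start 3 of the 4 annotated for SLC4A2 is shown for comparison, as a gene that passed in neither line and yet holds CACGTG at 2 places and the variant at 2, on the opposite strand, at chr7:151062297-151062546 on the plus strand within the gene. In all, 7 of the 9 genes had 20 RefSeq windows, of which 5 held ACGTG and 9 its variant, beside 18.5% and 32.2% of all windows. The first core was found for 4 genes, CA9, SLC4A2, SLC16A3 and BSG, in 1 or more of their windows. A gene with more starts has more windows to hold a match, and windows 3 and 4 of SLC4A2 overlap. The share of all genes with a match was not computed, so the count of genes has nothing to stand beside.
SLC4A2: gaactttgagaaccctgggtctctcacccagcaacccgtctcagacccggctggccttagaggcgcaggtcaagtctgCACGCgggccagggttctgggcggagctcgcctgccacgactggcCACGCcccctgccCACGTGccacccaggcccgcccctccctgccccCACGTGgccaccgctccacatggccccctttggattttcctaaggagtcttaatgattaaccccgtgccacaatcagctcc

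**Figure D4:**
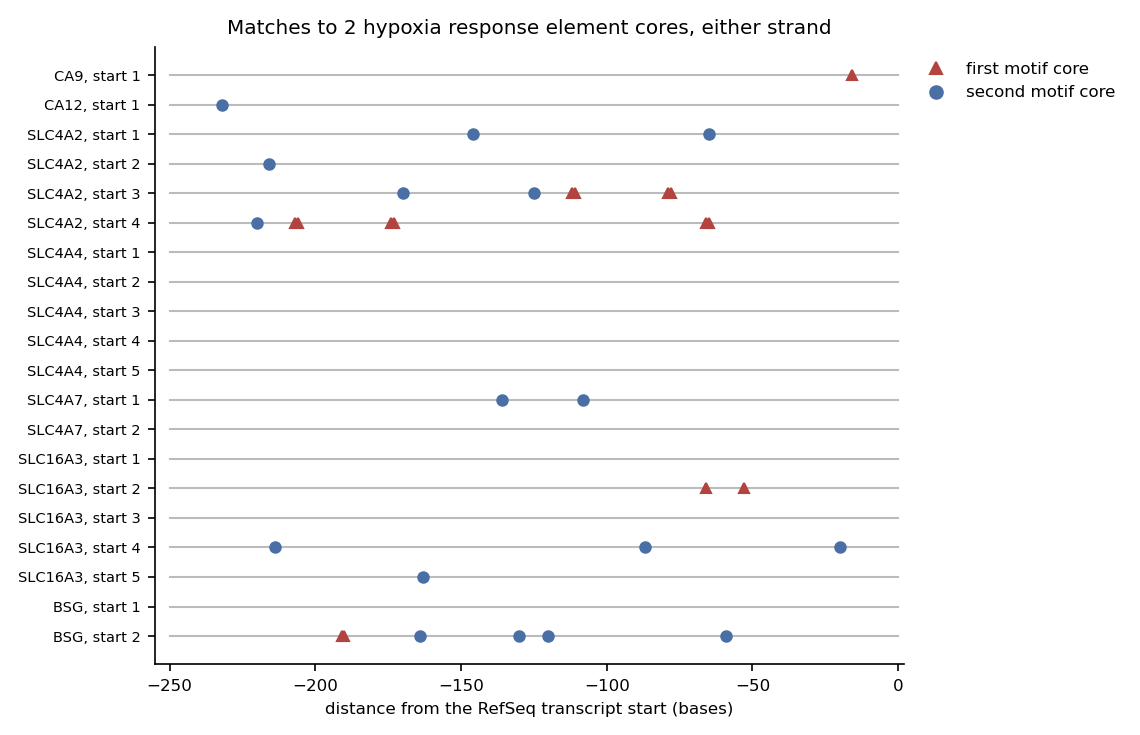
Positions of motif matches on either strand in the 250 bases before each of 20 RefSeq transcript starts of 7 genes; triangles mark ACGTG (first core) and circles GCGTG (second core), and some windows of a gene overlap. Of these windows, 5 hold ACGTG, as do 18.5% of all 35116 windows. They include that of CA9 and those of starts 3 and 4 of SLC4A2, and the 5 windows of SLC4A4 hold neither core.

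SLC4A4 (NBCe1), an electrogenic sodium-bicarbonate cotransporter on chromosome 4 from 71062667 to 71572087 (plus strand, hg38), was close to absent from the KYSE410 values. It was listed at 0.017, 0 and 0 FPKM in hypoxia and at 0.0061, 0 and 0 FPKM in normoxia, and was not tested. The KYSE150 table does not list it.

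The responses of the lines were then compared by the interaction of line and oxygen in 1 fit of all 12 libraries over 12653 genes. Of the 8 genes tested, 3 had a positive difference (KYSE410 minus KYSE150), 2 a negative one and 3 did not pass, beside 27.3% of all genes called positive, 36% negative and 63.3% either way. The rise of CA9 was larger in KYSE410 than in KYSE150 by 0.61 ± 0.10 (SE; limma, adjusted p = 3.255e-04), a line with a lower CA9 level in normoxia. SLC4A7 differed most of those of the 9 genes that were tested in both lines, by -1.71 ± 0.17 (SE; limma, adjusted p = 5.00385e-06), rank 151 among negative differences. SLC16A1 fell less in KYSE410, with a difference of 0.64 ± 0.07 (SE; limma, adjusted p = 6.89586e-06). The differences of CA2 (2.43 ± 0.12) and CA12 (-1.04 ± 0.09) reflect a gene near 0 in the other line (SE; limma, adjusted p = 2.43074e-08 for CA2 and 1.95073e-06 for CA12). CA2 reached the filter through KYSE410 alone and CA12 through KYSE150 alone, so each of these differences restates the change within that line. SLC16A3 differed by 0.29 (limma, adjusted p = 0.0526; 95% interval 0.03 to 0.56), BSG by 0.24 (limma, adjusted p = 0.0786; 95% interval -0.004 to 0.49) and SLC4A2 by 0.17 (limma, adjusted p = 0.110; 95% interval -0.02 to 0.35), none of which passed. Under median of ratios scaling and without the length trend these 3 passed as well, whereas a common sum turned those of SLC4A2 and BSG negative, as did quantile normalization for BSG, past the threshold (-0.12, limma adjusted p = 0.0479). The difference of BSG also passed without KYSE150 normoxia replicate 1 (0.29), 2 (0.13) or 3 (0.31), and that of SLC16A3 without KYSE150 normoxia replicate 3 (0.36) or KYSE410 normoxia replicate 1 (0.36), with a pseudocount of 0.1 (0.31, limma adjusted p = 0.0452) and among genes averaging 5 FPKM or more (0.29, limma adjusted p = 0.0494). Since oxygen and library set cannot be told apart in KYSE410, the same holds for each of these differences.

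The order of the levels over the 4 groups differed between genes, on the assumption that FPKM is comparable between the separately deposited tables. CA9 was highest in KYSE150 hypoxia, then KYSE410 hypoxia, KYSE150 normoxia and KYSE410 normoxia, with no overlap between neighbours. SLC4A7 was highest in KYSE410 normoxia, then KYSE410 hypoxia, KYSE150 hypoxia and KYSE150 normoxia, without overlap. For SLC16A3 the order was KYSE150 hypoxia, KYSE410 hypoxia, KYSE150 normoxia and KYSE410 normoxia, of which the middle groups overlapped. BSG was highest in KYSE150 hypoxia and lowest in KYSE410 normoxia, with KYSE410 hypoxia and KYSE150 normoxia overlapping between them. SLC16A1 was highest in KYSE410 normoxia and lowest in KYSE150 hypoxia, and KYSE410 hypoxia and KYSE150 normoxia overlapped. SLC4A2 was higher in both KYSE150 groups than in the KYSE410 groups, which overlapped.

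Sodium-proton exchangers move protons out of the cytosol in exchange for sodium. Among them and their partners, SLC9A8, an exchanger of the Golgi, changed by -1.58 in KYSE410 and -1.04 in KYSE150, and the scaffold SLC9A3R2 by -1.39 in KYSE410 (limma, adjusted p at most 1.992e-04). Of the 9 exchangers and partners tested in each line, 1 rose and 6 fell in KYSE410, and 0 rose and 2 fell in KYSE150. Among all genes tested, 31.2% rose and 51.9% fell in KYSE410, and 23.5% rose and 38.8% fell in KYSE150. The gene that rose, named after its value was seen, was SLC9A3 (0.61), an exchanger of apical membranes. Counts of rises depended on the scaling, with 4 higher and 4 lower in KYSE410 without the length trend and 4 higher and 2 lower in KYSE150 under quantile normalization. Under these settings 4685 of all 11256 genes were higher and 4563 lower in KYSE410. In KYSE150, 3914 of all 12692 genes were higher and 4049 lower.

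The V-ATPase pumps protons into endosomes and lysosomes and in some cells across the plasma membrane. Of its genes tested, 14 of 18 rose and 4 fell in KYSE410 (31.2% and 51.9% of all genes), with a median log2 change of 0.36 beside -0.21 for all genes. ATP6V1H changed by 0.84 and ATP6V1D by 0.75, both subunits of the cytosolic part, and ATP6V0A2 by -1.37 (limma, adjusted p at most 5.21601e-07). Under the other scalings and without the length trend, 10 to 14 were higher and 3 to 4 lower. Among all genes, 2743 to 4888 were then higher and 4563 to 7497 lower, of 12054 tested or 11256 without the length trend. In KYSE150, 6 of 20 rose, 6 fell and 8 did not pass (23.5% and 38.8% of all genes rose and fell). Without normoxia replicate 2, 9 rose and 8 fell, beside 3626 higher and 5809 lower of all 12692 genes. With all libraries, the largest called changes in KYSE150 were falls: ATP6V1E2 at -1.16, ATP6V0A2 at -1.06 and ATP6V1B2 at -0.88 (limma, adjusted p at most 4.782e-04). ATP6V1B2 rose in KYSE410, by 0.62 (limma, adjusted p = 5.86e-05).

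Few further carbonic anhydrases reached 1 FPKM. Of those tested, CA11, a member without catalytic activity, changed by -0.43 in KYSE410 (limma, adjusted p = 0.00287) and by -0.47 in KYSE150 (limma, adjusted p = 0.0115), both lost under quantile normalization (limma, adjusted p = 0.0573 and 0.0521). CA5B, a mitochondrial enzyme, rose in KYSE150 to 11.2 FPKM in hypoxia, against 4.04 FPKM in normoxia (log2 change 1.28; limma, adjusted p = 2.64011e-05). Other bicarbonate and anion transporters and their regulators moved both ways: 2 rose and 4 fell of 7 in KYSE410, and 2 rose and 2 fell of 5 in KYSE150, beside 31.2% and 51.9% of all genes in KYSE410 and 23.5% and 38.8% in KYSE150. SLC26A2 and SLC26A11, 2 of the 4 that fell in KYSE410, reached the filter there through their normoxia libraries alone. SLC26A6, a chloride-bicarbonate exchanger, rose by 0.61 in KYSE410 and 0.96 in KYSE150, and SLC26A2, a sulfate transporter, changed by -1.11 in KYSE410 and -0.94 in KYSE150 (limma, adjusted p at most 0.00286). SLC4A11 changed by -0.64 in KYSE410 and AHCYL1, a regulator of bicarbonate transport, by -0.78 in KYSE150 (limma, adjusted p at most 5.743e-04).

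Of the remaining monocarboxylate transporters and partners, 2 rose and 3 fell of 5 in KYSE410, and 0 rose and 3 fell of 6 in KYSE150, beside 31.2% and 51.9% of all genes in KYSE410 and 23.5% and 38.8% in KYSE150. Without KYSE150 normoxia replicate 2, 5 of the 6 fell in KYSE150, beside 5809 of all 12692 genes. The rises, named here after their values were seen, were those of the ancillary glycoproteins NPTN (0.54) and EMB (0.45). SLC16A13 changed by -1.74 in KYSE410 and -1.41 in KYSE150, SLC16A5 by -1.31 in KYSE410 and -1.17 in KYSE150, SLC16A14 by -1.33 in KYSE410 and SLC16A9 by -0.58 in KYSE150 (limma, adjusted p at most 0.0011). All 3 falls in KYSE410, and that of SLC16A13 in KYSE150, were of genes that reached the filter through their normoxia libraries alone. Among proton sensors, channels and pumps, ASIC1, an acid-sensing channel, changed by 0.84 and TMEM175, a lysosomal channel, by -0.79 in KYSE410 (limma, adjusted p at most 2.371e-05). In KYSE150 they changed by -0.24 and -0.35 (limma, adjusted p = 0.0402 for each), and both calls were lost under median of ratios scaling (limma, adjusted p = 0.375 and 0.161).

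**Figure D5:**
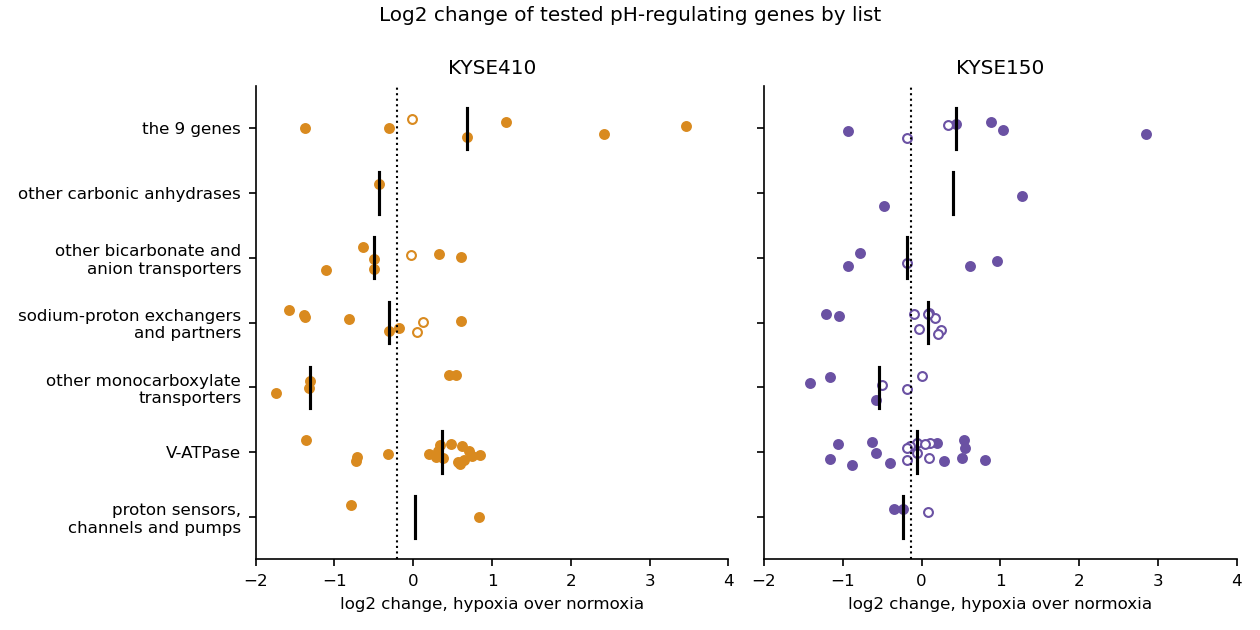
Log2 change in hypoxia over normoxia of every tested gene of each list (points; filled where the adjusted p is under 0.05), by line, with the list's median (bar) and the median of all genes (dotted line); vertical scatter within a list has no meaning. Of the genes plotted, which leave out the hypoxia check list, CA9 lies farthest to the right in each line, and the V-ATPase genes lie mostly above the median of all genes in KYSE410; the sodium-proton exchangers' balance of higher to lower calls changes with scaling.

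Over the 12 libraries, the genes of at least 5 FPKM whose log2 values ran most like those of CA9 were GPI, GBE1 and LDHA, with Pearson r of 0.998, 0.995 and 0.995 among 8180 genes. GPI and LDHA are enzymes of glycolysis and GBE1 builds branches in glycogen. SLC16A3 ran most like VDAC1, QARS1 and CRABP2 (r = 0.995, 0.993 and 0.991). For CA12 the nearest were SLC12A7, PLAGL1 and FBXL16 (r = 0.9999, 0.9998 and 0.999), and here the points share the gap between lines. These values describe 12 libraries in 4 groups and carry no test.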

How the data were processed

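Poly(A) RNA was captured on beads from total RNA of 12 samples and sequenced, per the labels' protocols. The submitters' processing notes name bcl2fastq 2.20, fastp 0.22.0, HISAT2 2.2.1 and hg38 without roles; which program made the values, with which annotation and strand setting, is not given in the sources used here. Without strand, reads of a gene and an overlapping opposite-strand gene cannot be told apart. For each line the authors deposited a table of values, taken here as FPKM. The unit was inferred: values times the longest transcript length of their gene summed to 0.899 to 1.003 of the total that FPKM imply. The values sum to between 351501 and 425094 per library. In KYSE410 the sums were 415926 to 425094 in hypoxia and 351501 to 356994 in normoxia, without overlap. In KYSE150 they were 377909 to 382990 in hypoxia and 366156 to 413967 in normoxia. Low values showed no steps of whole reads (at most 1.09% of genes shared the commonest ratio between libraries), so the depth is unknown and intervals from counting cannot be had. Genes above 0 numbered 22787 to 24667 in a library.

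From these values, log2(FPKM + 1) was modelled with limma 3.58.1 (R 4.3.3; moderated variances that follow the mean) over genes averaging 1 FPKM or more, per line and jointly for the interaction. Adjusted p-values are Benjamini-Hochberg over all genes tested, with 0.05 as threshold. Fits were run on simulated data with 200 changed genes, far fewer than were called in these data. That run does not show how the fits behave where most genes change. Ratios within a library were compared by exact permutation with scipy 1.17.1. Named genes are the 9 members, up to 3 called genes of largest change per list and line, and the 3 nearest genes by correlation of CA9, CA12 and SLC16A3; 1 gene that this rule takes is not reported here. Members and lists were chosen with earlier results of these data known. Positions come from GENCODE 29 (hg38) and sequences from RefSeq (GRCh38.p14), which held 7 of the 9 genes. Alternatives covered scaling, pseudocount, filters, the variance trend, a length trend, the replicate number as a block, and leaving out each library. Tables and plots were made with pandas 2.3.3, numpy 2.4.6 and matplotlib 3.10.9 under Python 3.11.15. Count-based tests were not run, as the values are not counts.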

Additional observations from a re-analysis of the deposited data

Results flagged for a closer look

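The response to hypoxia differed between KYSE410 and KYSE150 for 5 of the 8 genes tested (limma, interaction of line and oxygen, KYSE410 minus KYSE150, 3 libraries per group). The difference was 0.613 for CA9, which rose in both lines, and 0.636 for SLC16A1, which fell in KYSE150. The small fall of SLC16A1 in KYSE410 lost its call under median of ratios scaling and without the length trend. The difference was -1.71 for SLC4A7, which fell in KYSE410 and did not pass in KYSE150. It was 2.43 for CA2, a gene near 0 FPKM in KYSE150, and -1.04 for CA12, a gene near 0 FPKM in KYSE410. These 5 kept their direction and passed under every alternative run. CA2 reached the filter through KYSE410 alone and CA12 through KYSE150 alone, so their differences restate the change within that line. Among all genes tested, 63.3% differed, and in KYSE410 oxygen and library set cannot be told apart.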

How the results depend on the processing

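The rises of CA9, SLC16A3 and BSG in both lines, of CA2 in KYSE410 and of CA12 in KYSE150, the fall of SLC4A7 in KYSE410 and that of SLC16A1 in KYSE150 kept direction and call under every alternative run. Of the 9 genes' other values, 11 turned direction, whatever their p, and of those that kept it 25 newly passed and 1 no longer passed. That 1 was SLC16A1 in KYSE410 under median of ratios scaling, which also lost its call where its sign turned. In KYSE410, SLC4A2 was 0.1714 under median of ratios scaling, 0.29 under quantile normalization, 0.3306 without the length trend (also with the block) and between -0.05297 and 0.004225 when a library was left out, above 0 without hypoxia replicate 1 (0.0003763) or normoxia replicate 1. SLC16A1 there was 0.0151 without the length trend, with or without the block. Under a common sum the difference between lines was -0.07466 for SLC4A2 and -0.01027 for BSG, and -0.1169 for BSG under quantile normalization. The cause was not tested.

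Members called lower in KYSE410 were 1 under median of ratios scaling and without the length trend, with or without the block, where members with a positive difference were 6. Leaving out a library gave 1 to 2 members lower in KYSE150 and 3 to 5 positive differences. A mean of at least 5 FPKM left 4007 genes lower in KYSE410, 3253 in KYSE150 and 2981 with a negative difference, as fewer were tested. With a pseudocount of 0.1, the CA9 over CA12 ratio in KYSE410 differed by 3.75.

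Scaling moved the share of higher calls in KYSE410 to 48.2% (median of ratios; 4841 higher, 5194 lower) and 26.8% (common sum), from 37.6%, and in KYSE150 to 52.03% (median of ratios; 4004 higher, 3692 lower), from 37.7%. The median of all genes moved to -0.03 and -0.46 in KYSE410 and 0.02 in KYSE150. Transcript length and change had a Spearman rho of -0.268 in KYSE410 and 0.064 in KYSE150 across genes. Of the 9 genes, SLC4A7 had the longest annotated transcript, at 7970 bases, and CA9 and CA2 the shortest, at 1618 and 1717. The fall of SLC4A7 and the rises of CA9 and CA2 in KYSE410 kept direction and call without the length trend. Their sizes without it are not given here.

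Same-numbered libraries of a line deviated together at r = -0.069 to 0.084. These values show no pairing by replicate number but cannot exclude it, and the labels do not settle it. With the replicate block, 3730 genes were higher and 6201 lower in KYSE410, and 2922 and 4835 in KYSE150. SLC4A7 in KYSE150 passed under the block (0.3324, limma adjusted p = 0.0479), as did the difference between lines for SLC16A3 (0.2926, limma adjusted p = 0.0219). FPKM without depth limits what can be said of values near 0.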
